A study of Bos taurus and Bos indicus with 3 samples.

Results

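Respiratory complex I (NADH:ubiquinone oxidoreductase) was followed here through the nuclear genes of its subunits in blood leukocytes of 3 cattle breeds. The list held 36 subunit genes, chosen by name, with earlier results of these data known. From these data, the authors reported gene annotation terms for electron transport and NADH dehydrogenase as enriched among genes differing between Holstein and Cholistani. A gene model counted as a member when the table gave the gene symbol or the bovine protein entry name, and where a name stood on several models the one with the highest mean level was taken. In this way 30 of the 36 genes were found among 25968 gene models, 29 by their entry name and NDUFB5 by its symbol. NDUFA1, NDUFA5, NDUFA10, NDUFAB1, NDUFB11 and NDUFS6 were not found by name and have no value here. All 30 genes found were above 0 in every library. They lay on 18 chromosomes of btau4.0, and all positions below are on that build.

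Messenger RNA was measured by mRNA-Seq in 1 library per breed, 3 libraries in all. Holstein and Jersey are taurine dairy breeds (Bos taurus). Cholistani is an indicine breed (Bos indicus) of Pakistan. Each library came from the white cells of pooled tail vein blood, taken from 40 Holstein cows at a university dairy in Wisconsin, 7 Jersey cows at a second Wisconsin station and 45 Cholistani cows at a farm in Punjab. No treatment is named for any group, the ages of the cows are not given in the sources used here, and only the Cholistani RNA travelled in a dry storage matrix. Breed, farm, number of pooled cows and transport of the RNA cannot be told apart.

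Complex I is the entry point for NADH electrons in the mitochondrial respiratory chain. Its matrix arm oxidises NADH at a flavin and passes the electrons along iron-sulphur clusters to ubiquinone, and its membrane arm pumps protons. The membrane arm is built around subunits that the mitochondrial genome encodes, whereas all subunits of the matrix arm are nuclear. Of the nuclear subunits, the core ones carry the catalytic centres and are shared with bacteria, and the accessory ones surround, assemble or stabilise the core. Blood leukocytes depend on oxidative phosphorylation to different degrees, with lymphocytes and monocytes relying on it more than neutrophils.

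Levels are given in FPKM (fragments per kilobase of exon, scaled to the mapped fragments of the library), as the authors estimated and upper-quartile normalized them, so that levels of different genes are compared per length. Where 3 levels stand in a row, the first is Holstein, the next Jersey and the last Cholistani. Fold changes are the log2 ratio of FPKM + 1. With 1 library per breed there is no replicate error and no test, and every difference below is a difference between libraries. A 2-fold difference was taken as the limit. The Holstein values summed to 5949770 FPKM, the Jersey values to 6288100 and the Cholistani values to 9518430 over the models with a value in each library, which makes the scale of the Cholistani library matter. When each library was rescaled to the mean sum, the median log2 fold of all 15284 models above 0 in any library moved from 0.15 to -0.43 between Cholistani and Holstein. When the upper quartiles of the models above 0 in all 3 libraries were set equal, that median was -0.10. FPKM do not keep the number of fragments behind a gene, so no counting interval could be given.

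As deposited, complex I genes were higher in the Cholistani library than in either taurine library, and nearly level between Holstein and Jersey. The 30 genes had a median level of 406 FPKM in the Holstein, 444 in the Jersey and 823 in the Cholistani library. Set against Holstein, 14 members stood above the 2-fold limit in Cholistani, 1 stood below it and 15 were neither. Of all models, 19.7% passed this limit upward and 13.7% passed it downward. Among the 7036 models whose mean level lay within the range of the members, from 76.1 to 1736 FPKM, these shares were 14.2% and 5.39%. The median log2 fold of the members was 0.87, against 0.15 for all models and 0.27 for the models within the range of levels. Above 0 lay 25 of 30 members, beside 56.1% of all models and 64.6% of those within the range.

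The scale decided how many genes passed the limit. With the libraries rescaled to the mean sum, 0 members passed it upward and 2 downward, while 11.6% of all models passed it upward and 27.5% downward, and 19 of 30 members lay above 0. With equal upper quartiles the counts were 5 and 1, beside 14.2% and 19% of all models, so that the upward share of the members was near that of all models. Rescaling moves the members and all other models together, so the distance between their medians is nearly fixed by construction (0.72 as deposited and 0.62 after rescaling to the mean sum, on the log2 scale). In bulk leukocytes, more cells of a type rich in these transcripts and more of them per cell cannot be told apart.

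Against Jersey, 10 members passed the limit upward in Cholistani and 1 downward, beside 17.2% and 14.2% of all models and 11.9% and 4.85% of the models within the same range of levels. The median log2 fold was 0.74, against 0.12 for all models and 0.24 for those within the range, and 24 of 30 members lay above 0. After rescaling to the mean sum, 1 member passed the limit upward and 3 downward, beside 10.4% and 26.2% of all models, and the median was 0.14 against -0.41 for all models. With equal upper quartiles these counts were 4 and 1, beside 12.6% and 19% of all models. The comparisons with Holstein and with Jersey share the Cholistani library.

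Between the taurine libraries the members lay close together. No member differed 2-fold, where 7.99% of all models passed the limit upward in Jersey and 4.7% downward, or 2.2% and 0.767% of the models within the range of the members. The log2 folds ran from -0.28 for NDUFB8 to 0.32 for NDUFB10, with a median of 0.07 that was -0.01 after rescaling to the mean sum. The SD of the log2 folds over the members was 0.15 for Jersey over Holstein, and 0.66 for Cholistani over Holstein, and 0.69 for Cholistani over Jersey. The log2 folds of all models were also more spread with Cholistani. Their quartiles were -0.18 and 0.24 for Jersey over Holstein, and -0.44 and 0.80 for Cholistani over Holstein. Those of the members were -0.01 and 0.20, and 0.46 and 1.14. The wider spread is thus not particular to the members. In the plot of FPKM by gene and library, the circles and squares lie side by side and most Cholistani triangles lie apart from them, although those of NDUFB1 and NDUFB4 lie among or next to the taurine points.

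**Figure D1:**
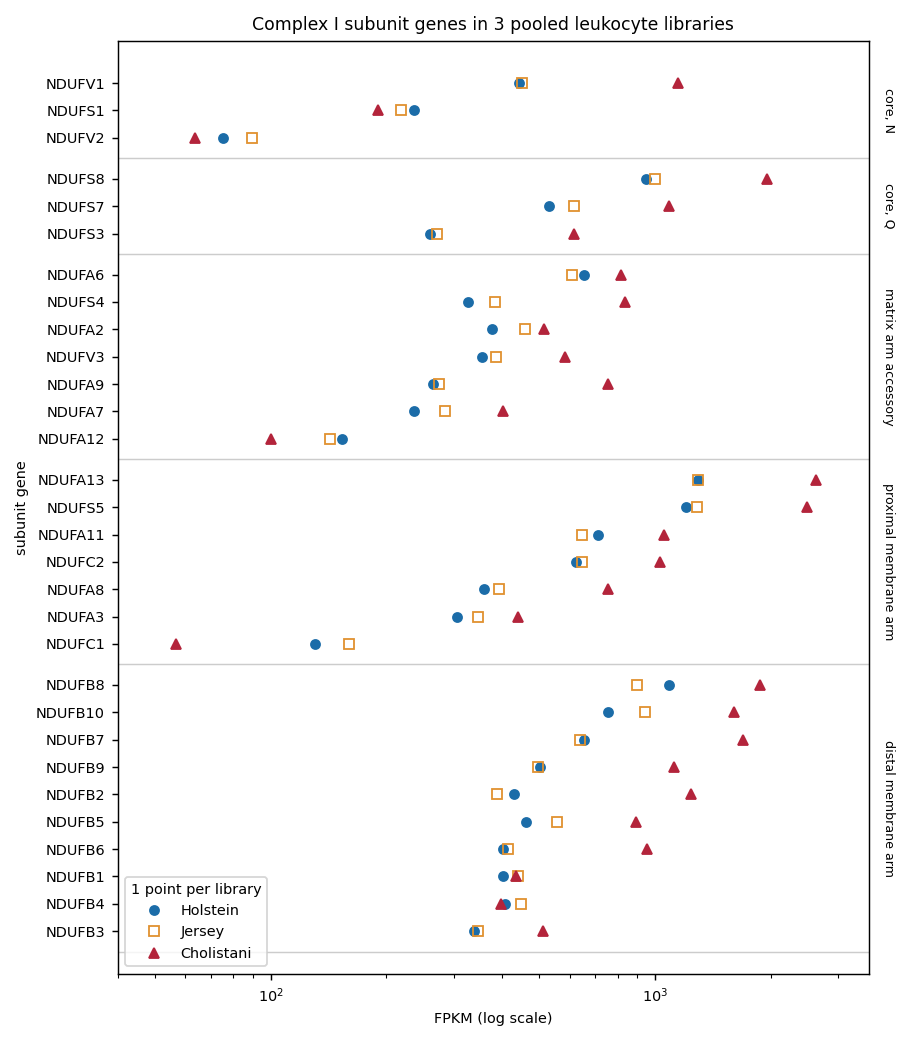
FPKM (log scale) of the 30 complex I subunit genes in the pooled libraries of Holstein (circles), Jersey (open squares) and Cholistani (triangles) cows, grouped by position in the complex. Most triangles lie to the right of both taurine points, and those of NDUFV2, NDUFS1, NDUFA12, NDUFC1 and NDUFB4 lie to the left of both.

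The core subunits of the NADH-oxidising module did not move together. NDUFV1, which binds NADH and the flavin (chromosome 29, 47423229 to 47429233), stood at 442 FPKM in Holstein, near 452 in Jersey, and at 1150.2 in Cholistani. This was 2.60 times the Holstein value, a log2 fold of 1.38, and 0.70 after rescaling to the mean sum. NDUFV2, its iron-sulphur partner in electron entry, had 75.2, 89.4 and 63.6 FPKM in the order Holstein, Jersey, Cholistani, a log2 fold of -0.24 between Cholistani and Holstein. NDUFS1, the large subunit that carries further iron-sulphur clusters (chromosome 2, 99537564 to 99568274), had 236, 218 and 189.9 FPKM in the same order, a log2 fold of -0.31. NDUFV1 was thus the only one of these 3 genes that was higher in Cholistani, and it remained so under both other scales, while NDUFV2 and NDUFS1 were lower under all of them.

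The 3 core subunits on the list that lead electrons to ubiquinone were all higher in Cholistani, by similar amounts. NDUFS3, a scaffold of the ubiquinone module (chromosome 15, 77729019 to 77733763), had 259, 271 and 614 FPKM in that order of libraries. NDUFS7, which holds the iron-sulphur cluster next to ubiquinone, had 531, 614 and 1086 FPKM. NDUFS8, a ferredoxin-like subunit, had 948, 1000.3 and 1954 FPKM. Their log2 folds between Cholistani and Holstein were 1.24, 1.03 and 1.04, and 0.56, 0.35 and 0.37 after rescaling to the mean sum. Against Jersey, NDUFS3 was past the 2-fold limit at 1.18, and NDUFS7 at 0.82 and NDUFS8 at 0.96 were not.

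Accessory subunits of the matrix arm ranged from lower in Cholistani to the second highest log2 fold of the list. Of 7 genes, 2 passed the 2-fold limit upward from Holstein to Cholistani, 0 downward and 5 neither, with a median log2 fold of 0.72. After rescaling to the mean sum the counts were 0 and 1 and the median was 0.04, and the shares of all models given above apply to these small groups too. NDUFA9, which sits where the matrix arm meets the membrane (chromosome 5, 112340655 to 112362480), had 265, 274 and 755 FPKM, a log2 fold of 1.51. NDUFS4, which holds the NADH module on the enzyme and whose loss causes Leigh syndrome in people, had 327, 384 and 833 FPKM (chromosome 20, 27117023 to 27232631), a log2 fold of 1.35. Both stayed above 0 after rescaling, at 0.83 and 0.67.

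The other matrix arm genes were nearer to Holstein. NDUFA12, a relative of the assembly factor NDUFAF2, had 153 and 143 FPKM in the taurine libraries and 99.99 in Cholistani (chromosome 5, 27558377 to 27585189), a log2 fold of -0.61. It was lower under every scale. NDUFA7 and NDUFV3 were higher in Cholistani by 0.76 and 0.72 on the log2 scale, and by 0.09 and 0.04 after rescaling to the mean sum. NDUFA2, of thioredoxin-like fold, had 377, 460.3 and 513 FPKM, and NDUFA6, of the LYR motif family, had 653, 609 and 813 FPKM. These last differences, log2 folds of 0.44 and 0.32 to Holstein, turned to -0.23 and -0.36 after rescaling to the mean sum.

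The proximal membrane arm held both the most abundant members and the gene lowest in Cholistani. NDUFA13, also known as the cell death regulator GRIM19, was the most abundant member in every library, at 1297, 1292 and 2618 FPKM (chromosome 7, 3724157 to 3732557). NDUFS5, which faces the intermembrane space, came second in every library, at 1206, 1287 and 2487 FPKM. NDUFA8, a relative of NDUFS5 in fold and location, had 359, 392 and 754 FPKM. These were the 3 genes of this arm above the 2-fold limit relative to Holstein, with log2 folds of 1.01, 1.04 and 1.07, that is, just past the limit. Against Jersey, NDUFS5 (0.95) and NDUFA8 (0.94) fell short of it.

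NDUFC1, a small membrane subunit next to ND2, had 130.1 FPKM in Holstein and 160.1 in Jersey against 56.7 in Cholistani (chromosome 17, 19683737 to 19687642). As deposited it was the only member below the 2-fold limit in Cholistani, with log2 folds of -1.19 to Holstein and -1.48 to Jersey. NDUFC2, which lies beside NDUFC1 in the enzyme, was on the other side of 0 with 624, 647 and 1029 FPKM, a log2 fold of 0.72 to Holstein. NDUFA11, a membrane protein related to the protein import channel, had a log2 fold of 0.57, and NDUFA3, a small single-helix subunit, one of 0.52. After rescaling to the mean sum NDUFC2 was at 0.04, NDUFA11 at -0.11 and NDUFA3 at -0.15.

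The distal membrane arm, made up of the NDUFB subunits, had the highest median log2 fold of the accessory groups, 1.02 over 10 genes (0.34 after rescaling to the mean sum). Of these genes, 5 passed the 2-fold limit upward from Holstein to Cholistani, 0 downward and 5 neither. NDUFB2, a small single-helix subunit, lay farthest above 0 of all members, with 429 and 388 FPKM in Holstein and Jersey and 1243 FPKM in Cholistani (chromosome 4, 107709758 to 107715386). Its log2 fold was 1.53 to Holstein and 1.68 to Jersey, and it was the only member past the limit upward to Jersey after rescaling to the mean sum, at 1.08. NDUFB7, a subunit of the intermembrane space face, had 653, 636 and 1695 FPKM and a log2 fold of 1.38 to Holstein. NDUFB6, another membrane subunit, had 403, 414 and 954 FPKM, a log2 fold of 1.24 (chromosome 8, 11593916 to 11610195).

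Smaller differences completed this arm. NDUFB9, of the LYR motif family, and NDUFB10, of the intermembrane space face, were higher than in Holstein by 1.15 and 1.08 on the log2 scale, and NDUFB5, NDUFB8 and NDUFB3 by 0.95, 0.79 and 0.59. NDUFB8 had 1085, 895 and 1877 FPKM, so that it passed the limit to Jersey (1.07) but not to Holstein. NDUFB1, among the smallest subunits, had 403, 440.2 and 434 FPKM, and NDUFB4 had 408, 448 and 398 FPKM. As deposited, the Cholistani value was 1.08 times the Holstein value for NDUFB1 and 0.974 times for NDUFB4. After rescaling to the mean sum their log2 folds to Holstein were -0.57 and -0.71.

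**Figure D2:**
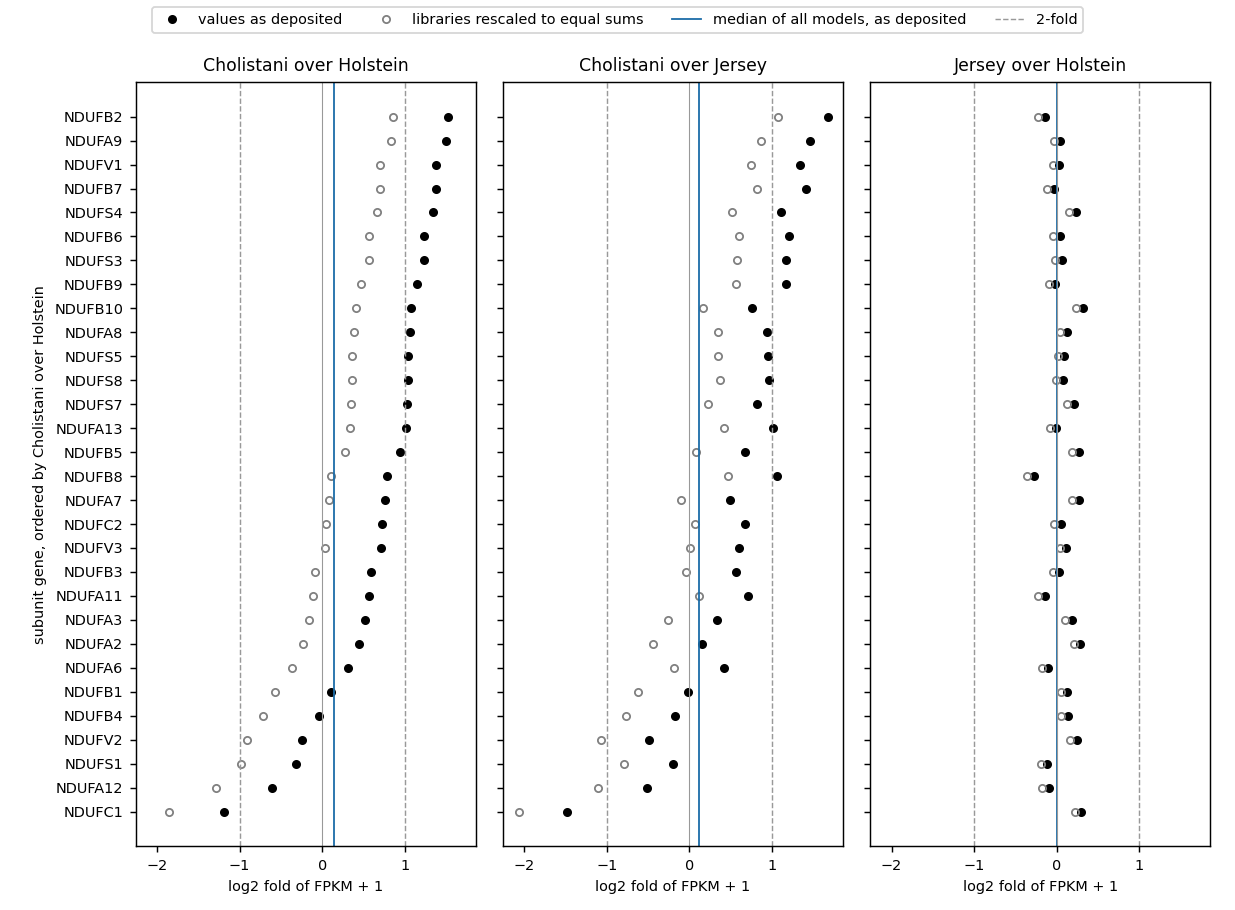
Log2 folds of FPKM + 1 of the 30 complex I genes for the 3 pairs of libraries, ordered by Cholistani over Holstein, as deposited (filled) and after rescaling the libraries to equal sums (open), with dashed lines at 2-fold and a solid blue line at the median of all models as deposited. Filled points reach from -1.19 (NDUFC1) to 1.53 (NDUFB2) in the left panel and stay between -0.28 and 0.32 in the right panel.

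The position of a gene within its own library does not depend on the scale between libraries. Among the models above 0 in the same library, the members had a median percentile of 85.4 in Holstein, 86.9 in Jersey and 90.3 in Cholistani. Members above the 90th percentile numbered 9, 10 and 16. From Holstein to Cholistani, 23 members moved to a higher percentile and 7 to a lower one, with a median change of 2.17 points. From Jersey to Cholistani these counts were 21 and 9, with a median change of 1.47 points, and from Holstein to Jersey also 21 and 9, with 0.69 points. The share of all models that moved to a higher percentile is not given here. Without it, these counts cannot be read as particular to the members. The largest upward step from Holstein to Cholistani was that of NDUFA9, from 77.5 to 89.4, and the largest downward step that of NDUFC1, from 59.7 to 38.7. NDUFA12 went from 63.9 to 51.4, NDUFS1 from 74.9 to 66.0 and NDUFS3 from 77.1 to 87.2.

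Together the members took up 0.251% of all FPKM in the Holstein library, 0.247% in the Jersey library and 0.296% in the Cholistani library. Within the list, transcripts of subunits that enter the enzyme in equal number were far from equal. The most abundant member was 17.2 times the least abundant in Holstein, 14.5 times in Jersey and 46.2 times in Cholistani, where NDUFC1 took the last place from NDUFV2. NDUFV2 stood on 2 models of almost equal level, described below. Its last place and the ranges in the taurine libraries rest on counting only 1 of them. NDUFC1 made up 0.87% of the summed FPKM of the list in Holstein and 0.20% in Cholistani. NDUFB2 made up 2.88% and 4.41%, and moved from rank 14 to rank 7. The order of the levels was otherwise similar, with Pearson's r of log2(FPKM + 1) over the 30 genes of 0.99 for the taurine pair, 0.92 for Cholistani with Holstein and 0.91 for Cholistani with Jersey (Spearman's rho 0.98, 0.88 and 0.84). These correlations describe genes measured in the same libraries and carry no p.

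**Figure D3:**
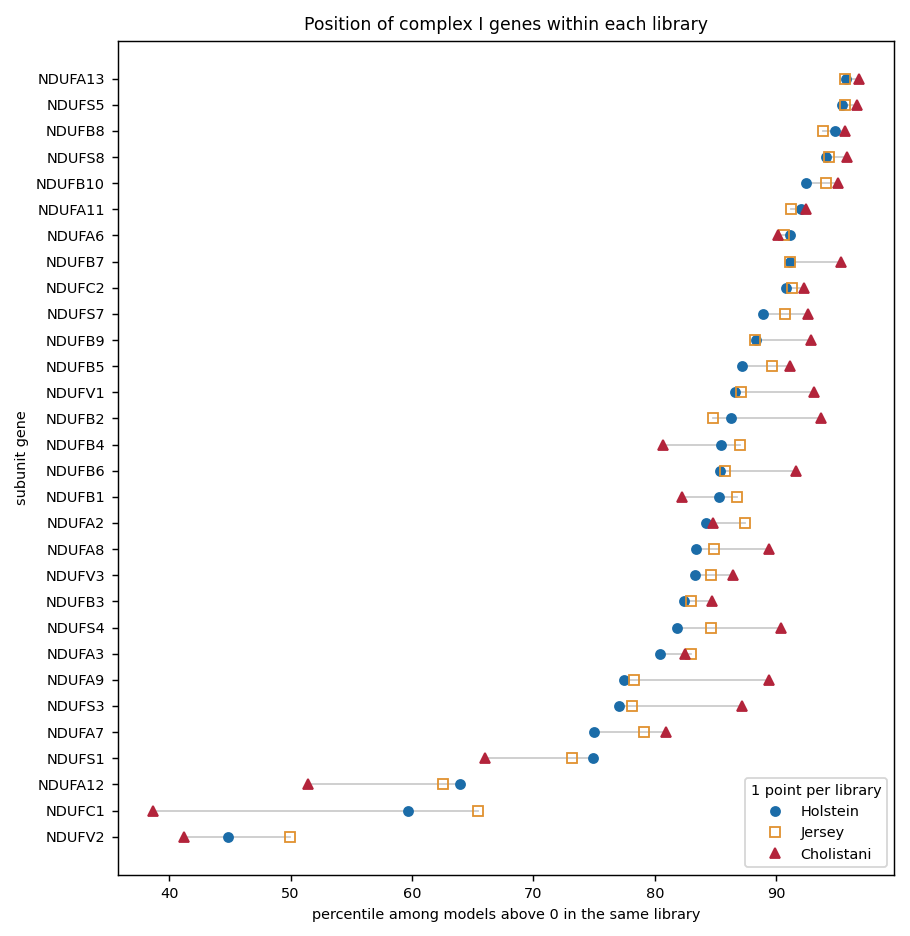
Percentile of each complex I gene among the models above 0 in the same library, for Holstein (circles), Jersey (open squares) and Cholistani (triangles), 1 point per library, ordered by the Holstein percentile. NDUFA13 and NDUFS5 hold the top places in all 3 libraries, and the widest gaps are those of NDUFC1, NDUFA12 and NDUFA9.

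Some members rest on models that may share reads with others. NDUFV2 stood on 2 models of chromosome 24, from 42923753 to 42942427 and from 43011207 to 43029851, at almost equal levels: the Holstein values were 75.2 and 73.3 FPKM, the Jersey values 89.4 and 78.7, and the Cholistani values 63.6 and 67.4. The current RefSeq gene table (ARS-UCD2.0) has 1 entry for each of the 36 genes. The value of NDUFV2 is therefore uncertain, because reads may have been divided between near-identical models. NDUFB4 had a second model of 1034 bases on chromosome 21, at 42.5, 46.8 and 126.1 FPKM, which was higher in Cholistani while the main model was not. A second model named NDUFA13 was at 0 in all 3 libraries.

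For 6 members the listed span was also that of other models above 0: CHKA, UNC93B1, ALDH3B1 and an entry without a gene name with NDUFS8, TMCO6 with NDUFA2, TFPT with NDUFA3, CPSF2 with NDUFB1, TECR with NDUFB7, and the ribosomal protein gene RPS2 with NDUFB10. In RefSeq, 8 of these 9 lie within 5 protein-coding genes of the member they share a span with. RPS2 had 22708 FPKM in Holstein and 36093 in Cholistani, far above the 756 and 1602 FPKM of NDUFB10. TECR, a fatty acid elongation gene, had 355 and 1186 FPKM beside the 653 and 1695 FPKM of NDUFB7. Whether counting used the strand is not given in the sources used here, and the values of these 6 members are uncertain to that extent.

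The complex I genes of the mitochondrial genome were far more abundant than the nuclear ones. ND1 had 24422, 22644 and 30272 FPKM, and ND2 had 12864, 15200.2 and 22663 FPKM. ND3 had 71009, 71815 and 162084 FPKM, the only one of the 5 genes found that passed the 2-fold limit to Holstein. A share of 1 in 5 is near the 19.7% of all models that passed this limit upward. With the library sums made equal, 0 of the 5 genes passed it in either direction, beside 11.6% of all models upward and 27.5% downward. ND5, whose listed span is also that of ND6, had a log2 fold of 0.36. A merged model of ND4L and ND4 had 34529, 34071 and 46710.4 FPKM. The median log2 fold of the 5 genes was 0.38, against 0.87 for the nuclear members, and -0.30 against 0.19 after rescaling to the mean sum. Within a library, the median of these 5 genes was 31.7 times the median of the nuclear members in Holstein, 34.2 times in Jersey and 27.5 times in Cholistani.

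Assembly factors of complex I were uneven. Of 17 listed genes, 9 were found by name. NDUFAF2, which helps attach the NADH module, was listed at 0 in Holstein and Jersey and had 54.9 FPKM in Cholistani, and no fold is given for it. Of the other 8, 2 passed the 2-fold limit upward relative to Holstein and 0 downward, beside 19.7% and 13.7% of all models. The upward share was thus near that of all models. The 2 genes were NDUFAF3, an early factor of the ubiquinone module (247, 333 and 705 FPKM), and ECSIT, which also acts in Toll-like receptor signalling (137, 151 and 314 FPKM). The lowest were TMEM186 and NDUFAF1, with log2 folds of -0.46 and -0.40. The median log2 fold of the 8 genes was 0.33, and -0.33 after rescaling to the mean sum. In that setting 0 of them passed the limit upward and 2 downward, beside 11.6% and 27.5% of all models.

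The nuclear subunits of the other respiratory complexes had medians on the same side as deposited, where 19.7% of all models passed the limit upward and 13.7% downward. Of 10 genes of complexes II and III, 4 passed the 2-fold limit upward from Holstein to Cholistani and 0 downward, with a median log2 fold of 0.75. Of 12 genes of cytochrome c oxidase, 6 were higher and 2 lower (median 0.69), and of 17 genes of ATP synthase, 4 were higher and 0 lower (median 0.58), the last an upward share near that of all models. Not all listed genes encode subunits in the strict sense. The oxidase list held the subunit-related COX7A2L, among the 6 with a log2 fold of 1.01. The ATP synthase list held its inhibitor ATPIF1, at -0.26. COX4I1, the largest nuclear subunit of cytochrome c oxidase, was the gene farthest below 0, at 8930 and 9460 FPKM in Holstein and Jersey and 1338 FPKM in Cholistani. After rescaling to the mean sum the medians of these lists were 0.07, 0.01 and -0.10, against 0.19 for complex I. Relative to Jersey the order turned, with a median of 0.83 for complexes II and III against 0.74 for complex I as deposited, and 0.23 against 0.14 after rescaling to the mean sum. No difference between these lists was tested.

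Markers of mitochondrial content had a smaller median than complex I in both comparisons with Cholistani as deposited (0.66 relative to Jersey). Of 10 genes, 2 passed the 2-fold limit upward relative to Holstein, a share like that of all models, and 0 downward, with a median of 0.48 that turned to -0.20 after rescaling to the mean sum. TOMM20, a protein import receptor of the outer membrane, was farthest above 0 with 310.1, 459 and 900.5 FPKM. Of the transcriptional regulators of mitochondrial genes, 6 of 11 were found, and PPARGC1A was at 0 in all 3 libraries. The 5 others had a median of -0.12, with 0 past the 2-fold limit, and PPARGC1B, a coactivator of mitochondrial genes, was the lowest with 53.8, 44.5 and 32.8 FPKM.

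**Figure D4:**
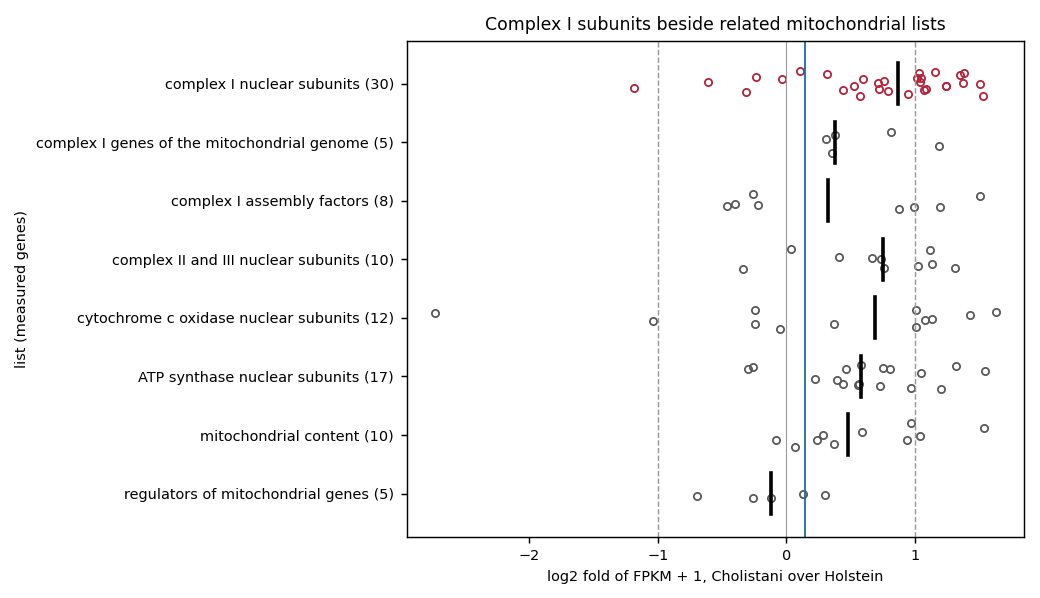
Cholistani over Holstein log2 folds of FPKM + 1 for complex I nuclear subunits and 7 related lists (measured genes in parentheses, those above 0 in all 3 libraries), 1 point per gene, with list medians as black bars, dashed lines at 2-fold and a blue line at the median of all models. The complex I median lies at 0.87, and the medians of the other lists lie between -0.12 and 0.75, whereas relative to Jersey, not drawn, complexes II and III lie above complex I (0.83 against 0.74).

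The libraries also differed in blood cell markers, of which 20 of 34 were found by name. The summed FPKM of 4 of 5 T cell markers was 4662, 4651 and 9757 in Holstein, Jersey and Cholistani. Most of this rise was that of CD3E (2041, 2127 and 6016 FPKM). The log2 folds to Holstein of CD3D, CD5 and CD3G were smaller, at 0.61, 0.62 and 0.33. The sum over 3 of 5 B cell markers was 6542, 8052 and 16162 FPKM, carried by CD79A (5281, 6190 and 14273 FPKM). PAX5 went the other way with 296, 381 and 145 FPKM. The 5 neutrophil markers summed to 19238, 16623 and 18374 FPKM, a sum carried by S100A8 and S100A9. Within this list the receptors CXCR2 (33.5, 7.62 and 598 FPKM) and CSF3R (657, 532 and 1976 FPKM) were past the 2-fold limit upward in Cholistani, and MMP9 was at 0 in Jersey. The median log2 fold to Holstein was 0.84 over the 4 neutrophil markers above 0 in all libraries, 0.62 over the T cell markers and 0.85 over the B cell markers.

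Among the other cell types, NCR1 of natural killer cells had 699.7, 502 and 1594 FPKM and CD14 of monocytes had 342, 237 and 398 FPKM. The 3 platelet markers found of 5 summed to 5335, 4039.6 and 1361 FPKM, where TUBB1 went from 4430.1 FPKM in Holstein to 551 in Cholistani and GP9 in the other direction, from 84.5 to 190.04 FPKM. Of 3 red cell markers found of 5, ALAS2 had 536, 363 and 32.3 FPKM, HBA had 0, 11.5 and 69.3 FPKM and AHSP was at 0 in every library. As deposited, markers of T cells, B cells, natural killer cells and neutrophils thus moved in the direction of the complex I genes. The exceptions were PAX5 and S100A8, the latter with 11065 FPKM in Holstein and 7767 in Cholistani. Relative to Holstein, 56.1% of all models also lay above 0. After rescaling to the mean sum, the medians to Holstein were -0.06 for T cell, 0.18 for B cell and 0.17 for neutrophil markers. NCR1 was at 0.51 in that setting, and the complex I median was 0.19. The part of these markers in the complex I result was not tested.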

How the data were processed

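Leukocyte mRNA of pooled blood was sequenced by the authors as paired-end fragments, with 1 lane and 1 library per breed. They aligned reads to btau4.0 with TopHat 1.0.14 and Bowtie 0.12.7, given Ensembl release 60 junctions, dropped reads with over 20 locations, and assembled and quantified models with Cufflinks 0.9.3. The deposited values are FPKM, upper-quartile normalized and bias-corrected by the authors. FPKM do not keep the fragment count behind each value. Here the FPKM were used as deposited. Listed starts were taken to count from 0, and 1 was added. The 5 models with missing Holstein and Jersey values were left out. Folds were log2 ratios of FPKM + 1, with no test, and counts used a 2-fold limit. In related lists, medians cover genes above 0 in all 3 libraries. The members and lists were chosen with earlier results of these data known. Full values are given for core subunits, the 6 largest and 6 smallest folds between Cholistani and Holstein, the 3 most and 3 least abundant members, members with several models, and others added where a paragraph turns on them. Alternatives changed the pseudocount, minimum level, scale, choice of model and name matching. The log2 folds and the 2-fold limit were tried on simulated libraries of equal scale. Name matching, rescaling and percentiles were not tried in this way. Python 3.11.15, pandas 2.3.3, numpy 2.4.6 and matplotlib 3.10.9 were used. Sequences of the subunits were not used here.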

Additional observations from a re-analysis of the deposited data

How the results depend on the processing

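Of 98 alternative values computed for the counts and medians of complex I genes, 77 were equal to the reported value or within 1.5 times of it on the same side of 0. This total is no measure of robustness. The minimum of 10 FPKM kept all 30 genes, so its values could not differ, and pseudocounts change little at these levels. Both rescalings moved the medians and upward counts of Cholistani against either taurine library by more than that. After rescaling to the mean sum, the median log2 fold was 0.19 for Cholistani over Holstein, 0.14 for Cholistani over Jersey and -0.0083 for Jersey over Holstein. In that setting 0 genes passed the 2-fold limit upward and 2 downward relative to Holstein, and 1 upward and 3 downward relative to Jersey, where all models also turned downward (11.6% upward and 27.5% downward to Holstein, 10.4% and 26.2% to Jersey). With equal upper quartiles the medians were 0.53, 0.42 and 0.046, and 5 genes passed the limit upward relative to Holstein and 4 relative to Jersey. Centring on the median of models with at least 10 FPKM left 7 genes past the limit upward relative to Holstein. The share of all models past the limit after centring is not given here. Matching by gene symbol only left 3 models: NDUFB5, the second model of NDUFB4 and the NDUFA13 model at 0 in all libraries. Of these, only the NDUFB4 model passed the limit, upward in Cholistani against either taurine breed. It also gave the median of 0.13 between Jersey and Holstein. For NDUFA13 and NDUFB4 these are not the models reported above, so this setting does not check their values. With both directions counted, 22 genes in Cholistani were past a 1.5-fold limit against Holstein and 20 against Jersey. At 3-fold 0 were past it against Holstein and 1 against Jersey. Shares of all models at these limits are not given here, so these counts cannot be read as particular to the members. Pseudocounts of 0.1 and 10 FPKM, a minimum of 10 FPKM, the sum over all models and genes with 1 model moved none of these values by over 1.5 times, nor did leaving out the 6 genes that share a span, which was chosen after seeing the data. No paired analysis was possible because each breed has 1 library, and leaving out a library leaves no comparison. The lack of replicates limits every value, and the number of fragments behind a gene cannot be read from its FPKM.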
